A study of Mus musculus with 4 samples.

Results

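The 6 genes described here make, cut or bind hyaluronan. They are the hyaluronan synthase genes Has2 and Has3, the hyaluronidase genes Hyal1 and Hyal2, Cemip and the receptor gene Cd44. They were taken by symbol from the 35976 gene rows of a table of raw read counts, and each symbol had its row. They were proposed with the difference between knockdown and control cells already known, so their values in that comparison are given as a description and nothing is read from whether they passed a threshold. The study compared mouse E14 embryonic stem cells of the strain written 12910la, labelled wild type, with the same cells labelled as knocked down for Lx8-SINE B2, a repeat-derived RNA whose name joins a LINE subfamily and a SINE family. There were 2 libraries a group. Cells were kept undifferentiated with LIF, in medium with serum and on gelatin. The knockdown used a short hairpin RNA from the pSuper puro vector followed by puromycin selection. A single treatment text was attached to all samples, and what the controls received was not stated.

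Total counts ran from 16383323 to 19867689 a library. The labels do not say whether the libraries were made from separate cultures, so p-values reflect the spread of these libraries only, and that spread may be technical. Titles of knockdown libraries mention a batch and those of the controls do not, so batch and treatment cannot be told apart. Of 8 stem cell markers, all were detected in every library, with Pou5f1 at 902 to 1256 CPM (counts scaled to library size). Of these 8, edgeR called 1, Tdgf1, lower in the knockdown libraries, against 2 called by DESeq2. Over all 16209 tested genes edgeR called 1.43% and DESeq2 called 1107 genes. The summed level of the 8 markers was 7334 and 7087 CPM in control cells against 5145 and 5787 CPM after knockdown. Mean Tdgf1 was 1342 CPM in control cells against 587 CPM after knockdown, and mean Dppa5a 1442 against 843 CPM. The groups overlapped in Pou5f1, Sox2, Nanog, Zfp42, Esrrb and Utf1, so the lower sum does not describe every marker. Over all genes, counts of libraries of 1 group varied by more than counting error (chi-square over its degrees of freedom 30.8 in controls and 14.4 in knockdown libraries). Lx8-SINE B2 itself was not analysed here.

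Hyaluronan is a long, unsulfated sugar polymer of the extracellular matrix. Synthases at the plasma membrane build it from the activated sugars UDP-glucuronic acid and UDP-N-acetylglucosamine and push it out of the cell. HYAL2 at the cell surface cuts long chains, HYAL1 works in lysosomes, and lysosomal exoglycosidases finish the fragments. CEMIP binds hyaluronan and is needed for its depolymerisation in several cell types, and CD44 is its best known surface receptor.

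The sequences before the start sites of Cemip and Hyal1 are shown because these genes had the largest fold differences among the members tested. They come from RefSeq (GRCm38.p6, the same build as the mm10 named by the submitters), from a table that held 4 of the 6 members, all but Has2 and Has3. Each run reads 5′ to 3′ on the gene's strand and ends before the RefSeq start or the first GENCODE exon, whichever comes first. The Cemip run holds all 250 bases before its RefSeq start. The Hyal1 run holds 227 of them, since its first GENCODE exon begins before the RefSeq start at 107576950. Capitals mark matches to the motifs searched.

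Cemip, chr7:84086506-84086755, minus strand: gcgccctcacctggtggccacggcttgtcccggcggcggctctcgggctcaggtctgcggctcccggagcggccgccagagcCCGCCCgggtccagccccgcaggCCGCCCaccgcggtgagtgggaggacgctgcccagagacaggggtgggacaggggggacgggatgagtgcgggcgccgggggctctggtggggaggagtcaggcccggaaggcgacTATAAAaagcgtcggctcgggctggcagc
Hyal1, chr9:107576700-107576926, plus strand: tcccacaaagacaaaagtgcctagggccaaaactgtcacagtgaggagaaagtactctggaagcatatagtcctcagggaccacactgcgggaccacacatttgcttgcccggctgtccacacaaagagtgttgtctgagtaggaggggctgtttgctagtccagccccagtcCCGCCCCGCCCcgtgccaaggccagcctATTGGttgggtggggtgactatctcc

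The search covered both strands of the 250 bases before each RefSeq start, in 32851 such windows. The Cemip window held TATAAA, the letters of the TATA box, 29 bases before the start and on the gene's own strand, and 12.4% of all windows held these letters on either strand. The Hyal1 window held no TATAAA. The letters GGGCGG, the GC box, were in both windows with 2 matches each, and the pair in Hyal1 shared 1 base. They were in 32.7% of all windows. CCAAT was found in Hyal1 and not in Cemip, against 33.85% of windows. Neither window held ACGTG (a hypoxia response core, 16.6% of windows), GGAATG (a TEAD site, 12.6%) or TGANTCA (an AP-1 site, 6.75%). The Cemip window was 75.2% G and C, at or above 96.4% of all windows, and that of Hyal1 was 56.0%, against a median of 52.4%. Such matches describe letters and say nothing of a factor's binding.

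The genes covered a wide range of levels. To compare genes, CPM were divided by the length of the longest annotated transcript in kb. In the controls the order was Hyal2 at 11.2 CPM per kb, Hyal1 at 2.40, Has3 at 1.78, Cemip at 0.206, Has2 at 0.0804 and Cd44 at 0.0744. The ranges of neighbours in this order did not overlap, except those of Has2 and Cd44, which also changed places when the median transcript length was used. In the knockdown libraries Hyal2 stood at 8.93 CPM per kb, Hyal1 at 6.03, Cemip at 1.52, Has3 at 1.51, Has2 at 0.266 and Cd44 at 0.155. There Cemip and Has3 overlapped, as did Has2 and Cd44.

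**Figure D1:**
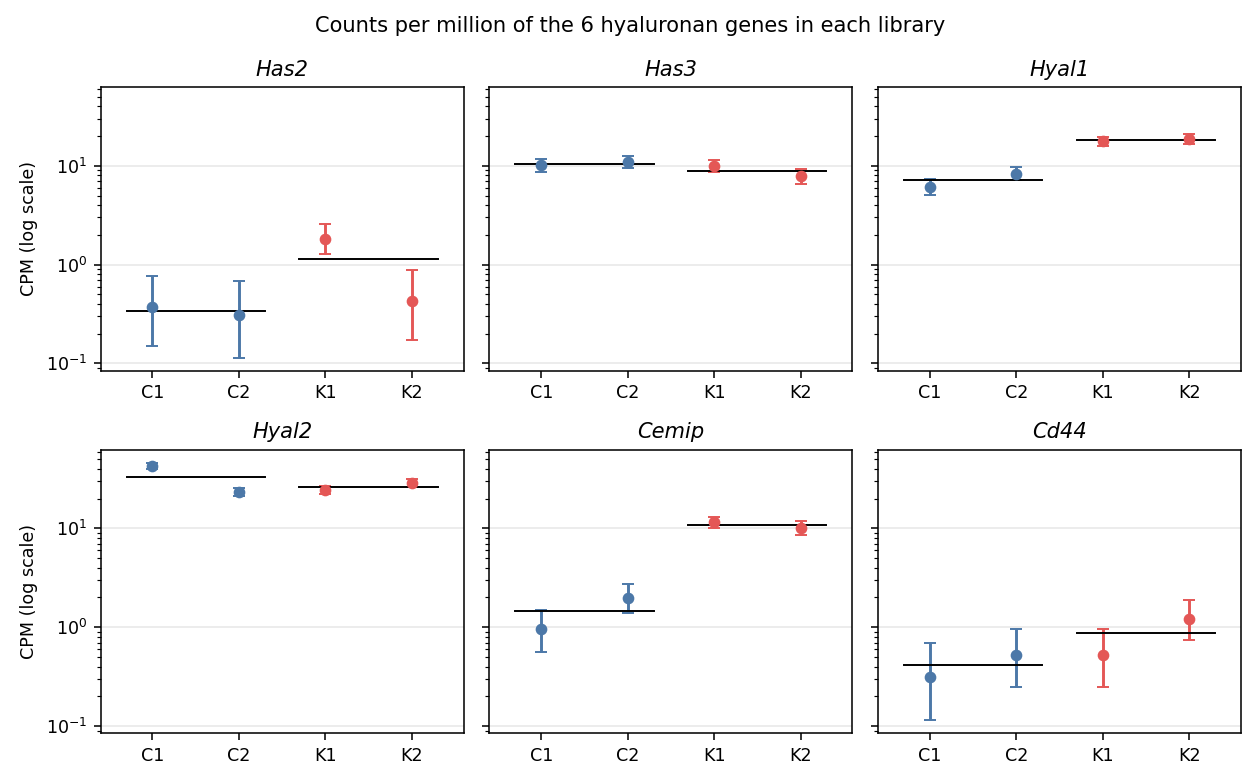
CPM (log scale) of each of the 6 genes in the control libraries (C1 and C2, blue) and the knockdown libraries (K1 and K2, red). Points are libraries, bars are exact 95% Poisson intervals and black lines are group means. Cemip and Hyal1 lie higher in both knockdown libraries, Has2 in K1, and C1 stands above the rest for Hyal2.

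Among the synthases, Has3, which makes hyaluronan in many adult and cultured cells, carried most of the signal. It measured 10.1 and 11.0 CPM in control cells and 9.94 and 7.90 CPM after knockdown. Both knockdown libraries lay below both controls, but the exact 95% Poisson interval of knockdown replicate 1, which covers counting error only, was 8.58 to 11.5 CPM and took in both controls. The log2 fold change (knockdown over control) was -0.24 (standard error, SE, 0.31). It ranged from -0.42 to -0.08 over fits that left out 1 library. Has3 lies on chromosome 8 from 106870242 to 106884566, and 5.52% of its exon bases overlap the antisense gene Chtf8. Chtf8 was at 221 to 262 CPM, so unless reads were counted by strand, some Has3 reads may belong to it.

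Has2, the main synthase of the embryo, which the developing heart needs, was near the limit of detection in 3 of the 4 libraries. Its counts were 7 and 6 in control cells and 35 and 7 after knockdown. Scaled to library size, the controls gave 0.370 and 0.311 CPM and the knockdown libraries 1.83 and 0.426 CPM. Only knockdown replicate 1 was high. Its 95% Poisson interval ran from 1.28 to 2.55 CPM, above the upper bounds of the other 3 libraries, of which the highest was 0.877 CPM. The knockdown mean of 1.13 CPM therefore rests on that library, and with a standard deviation of 0.994 the groups did not differ beyond their spread. Has2 did not pass the filter on low counts, since that filter asks for a level in at least 2 libraries. Has2, on chromosome 15 from 56665627 to 56694539, shares 4.30% of its exon bases with the antisense transcript Has2os, which had 2 counts in knockdown replicate 1 and 0 in the others.

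Has1, the other synthase gene, had 2 to 5 counts a library. Per length, Has3 made up 92.1% and 94.7% of the summed level of the 3 synthases in the controls. Its share was 78.5% and 87.8% in the knockdown libraries. Has2 made up 4.69% and 3.76% in the controls against 20.2% and 6.59%. The sum itself was 1.86 and 1.95 CPM per kb in control cells against 2.14 and 1.52 after knockdown, so the groups overlapped.

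Cemip showed the widest gap of the 6 genes. Its counts were 18 and 38 in control cells and 221 and 166 after knockdown. Scaled to library size, the controls gave 0.951 and 1.97 CPM and the knockdown libraries 11.6 and 10.1 CPM. Both knockdown libraries lay above both controls. The lowest knockdown interval began at 8.62 CPM and the highest control interval ended at 2.71 CPM. These intervals cover counting error and not the spread between libraries. Its mean was 7.41-fold higher in the knockdown libraries, at 10.8 ± 1.04 CPM (SD, n = 2) against 1.46 ± 0.721 CPM (SD, n = 2), with a log2 fold change of 2.88 (SE 0.45). The controls themselves differed, and the log2 fold change was 2.45 without control replicate 1 and 3.45 without control replicate 2. The gene lies on chromosome 7 from 83932857 to 84086502, and none of its exons overlapped an exon of another annotated gene. Its neighbour Abhd17c, a depalmitoylating enzyme gene 22854 bases away, had a log2 fold change of 0.06 (SE 0.20). On the other side lie Mesd, 31325 bases away, and Tlnrd1, 48552 bases away. Neither had a row under these symbols, and no values are given for them.

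Over all 16209 genes, edgeR's quasi-likelihood test was applied at a Benjamini-Hochberg adjusted p below 0.05. In the knockdown libraries 142 genes were called higher (0.876%) and 90 lower (0.555%), together 1.43%. Of the 6 members, 5 were tested, and 1 of them, Cemip, was among the genes called higher. DESeq2, which called 1107 of the 16209 genes, also called Hyal1. So did edgeR with no filter beyond a count above 0, which called 1717 genes. With the replicate number as a block, edgeR called 656 genes, Hyal1 among them. Other scalings, a filter at 1 CPM in 2 libraries and limma-voom did not call Hyal1. Among the tested members, both knockdown libraries lay above both controls in Cemip, Hyal1 and Cd44, as they did in 27.3% of tested genes, and below both controls in Has3, as they did in 24.6%. The members were chosen with this comparison in view, so nothing is read from these counts.

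The pattern of Cemip over the 4 libraries was compared with that of 11037 tested genes whose mean reached 5 CPM. The measure was the Euclidean distance between log2 CPM centred on each gene's mean. The nearest was Atf5, a stress-responsive transcription factor gene, at a distance of 0.45. Atf5 stood at 15.5 and 24.0 CPM in control cells against 124 and 98.9 CPM after knockdown. Like Cemip, it was higher in control replicate 2 than in control replicate 1 and higher in knockdown replicate 1 than in knockdown replicate 2. The next were 5830418P13Rik at 0.66, the translation factor gene Eif4g3 at 0.79, Fam212b at 0.80 and Cd80, which encodes a T cell costimulatory ligand, at 0.90. With 4 libraries such a likeness is a description only.

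Markers of other cell types were measured in the same libraries. The summed level of 8 primitive endoderm markers was 15.0 and 25.4 CPM in control cells against 48.4 and 34.5 CPM after knockdown, and both knockdown libraries lay above both controls in 5 of the 7 tested markers, against the 27.3% of all tested genes given above. Gata6 had a log2 fold change of 1.56 (SE 0.44, edgeR adjusted p = 0.11), and 0 of the 7 were called by edgeR, with 4 at an unadjusted p below 0.05, as 19.6% of all tested genes were, against 1 called by DESeq2 and 0 by limma-voom. The sum of 8 trophectoderm markers was 68.4 and 75.8 CPM in control cells against 60.2 and 105 CPM after knockdown, with 0 of 6 tested markers called by edgeR, 1 at an unadjusted p below 0.05, 1 called by DESeq2 and 0 by limma-voom. Of the defining trophectoderm genes, Elf5 had 1 count in all, and Cdx2 had 1 and 2 counts in control cells against 9 and 5 after knockdown. Gata3 had 9 and 9 counts against 60 and 46 (log2 fold change 2.64, SE 0.51, edgeR adjusted p = 0.0527). The groups overlapped in every other tested trophectoderm marker. The log2 fold change was 0.24 (SE 0.31) for Eomes, -0.01 (SE 0.21) for Tfap2c and 0.51 (SE 0.57) for Krt8. It was -0.32 (SE 0.50) for Krt18 and 0.97 (SE 0.80) for Hand1. The sum of 8 fibroblast markers was 25.0 and 33.15 CPM in control cells against 11.0 and 11.8 CPM after knockdown, with Lum and Postn at 0 in every library. Of 4 tested fibroblast markers edgeR called 0, with 2 at an unadjusted p below 0.05, DESeq2 called 2 and limma-voom 0. Over all 16209 tested genes DESeq2 called 1107 and limma-voom 241. Thy1 was at 13.3 and 12.9 CPM against 2.88 and 5.53 CPM, and Pdgfrb at 9.51 and 16.5 CPM against 5.28 and 3.65 CPM. The other tested fibroblast markers overlapped between groups, Col1a1 at a log2 fold change of -0.35 (SE 0.47) and Col1a2 at 0.92 (SE 0.91). Col3a1 and Dcn each had 1 count in all, in knockdown replicate 2. The fall in the sum was thus carried by Thy1 and Pdgfrb and not shared by the whole list. The part of other cells in the Cemip and Hyal1 values was not tested. In bulk libraries more cells with a transcript and more transcript in each cell cannot be told apart.

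Among the hyaluronidases, Hyal1, the lysosomal enzyme gene, had 116 and 161 counts in control cells against 337 and 308 after knockdown. Scaled to library size, the controls gave 6.13 and 8.35 CPM and the knockdown libraries 17.6 and 18.7 CPM. Both knockdown libraries lay above both controls, and the counting intervals of the groups did not overlap. The mean was 2.51-fold higher, at 18.2 ± 0.774 CPM (SD, n = 2) against 7.24 ± 1.57 CPM (SD, n = 2), a log2 fold change of 1.33 (SE 0.30).

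The Hyal1 row overlaps that of a neighbouring gene. Hyal1 lies on chromosome 9 from 107576927 to 107581710, and 50.8% of its annotated exon bases are also exons of Naa80, on the same strand. Naa80 encodes an actin N-terminal acetyltransferase and is listed in the table under its older symbol Nat6. Nat6 had 136 and 192 counts in control cells against 358 and 342 after knockdown, with a log2 fold change of 1.20 (SE 0.29, edgeR adjusted p = 0.0812). The ratio of Hyal1 to Nat6 counts was 0.853 and 0.839 in control cells against 0.941 and 0.901 after knockdown, so both rows were higher by a similar factor. Strand cannot part these genes, and how shared reads were counted is not given in the sources used here. How far the Hyal1 row measures Naa80 transcripts was not tested.

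Hyal2, the gene of the cell surface enzyme, had the highest level of the 6. It measured 43.1 and 23.6 CPM in control cells and 24.4 and 28.6 CPM after knockdown. Control replicate 1 was alone in being high, and the other control lay below both knockdown libraries. The log2 fold change of -0.33 (SE 0.30) depended on that library, since it was 0.16 without control replicate 1 and -0.75 without control replicate 2. Hyal2 lies on the same strand of chromosome 9 as Hyal1, from 107567945 to 107572779, and 4148 bases separate the genes. Per length, the ratio of Hyal1 to Hyal2 was 0.140 and 0.348 in control cells against 0.711 and 0.645 after knockdown.

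**Figure D2:**
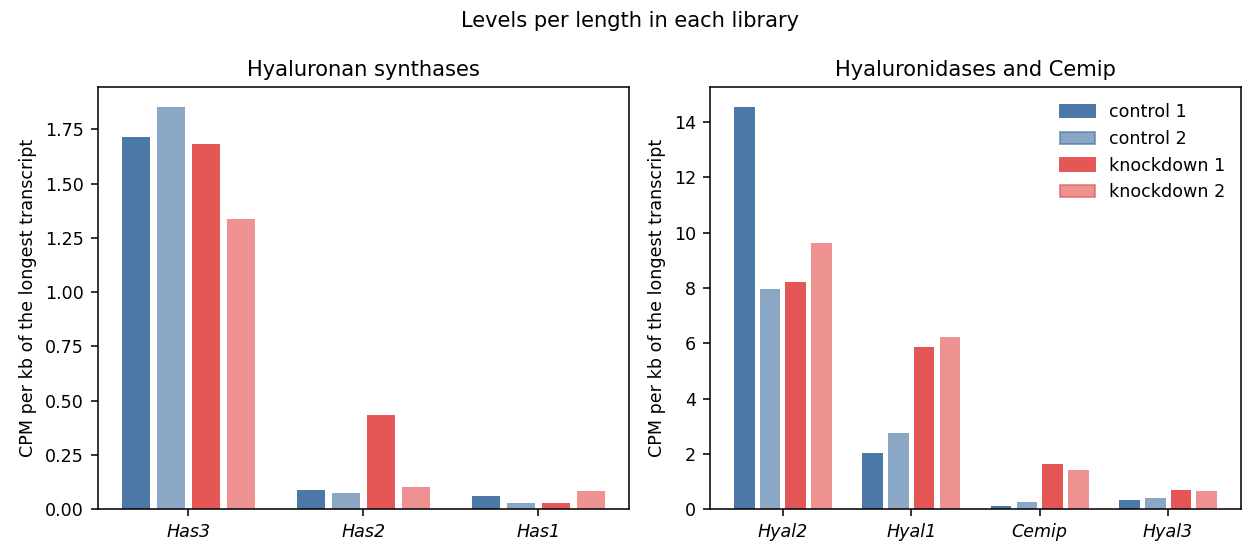
CPM per kb of the longest transcript for the synthase genes (left) and for the hyaluronidase genes and Cemip (right), with a bar for each library. Has3 leads the synthases in all 4 libraries, and Hyal2 leads the right panel in all 4. The gap between Hyal1 and Hyal2 is narrower in the knockdown libraries.

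Hyal3, the third gene of this cluster, had 12 and 15 counts in control cells against 25 and 20 after knockdown. Its log2 fold change was 0.83 (SE 0.53, edgeR adjusted p = 0.43), and it shares 159 exon bases with Hyal1. Within 50 kb of Hyal2 the fold differences went both ways. The tumour suppressor gene Rassf1, 5678 bases from Hyal2, had a log2 fold change of 0.67 (SE 0.23) and Tusc2, between them, one of 0.34 (SE 0.21). Farther out on that side Cyb561d2 was at 0.65 (SE 0.32) and Tmem115 at 0.44 (SE 0.24). Nprl2 was at -0.37 (SE 0.23), Cacna2d2 at -0.48 (SE 0.30) and Zmynd10, with few counts, at -1.61 (SE 0.69). On the other side Ifrd2 was at -0.37 (SE 0.18), Sema3b at -0.39 (SE 0.48) and Gnai2 at -0.27 (SE 0.23). None of these neighbours was called. They were chosen by position after the values of the members were known.

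**Figure D3:**
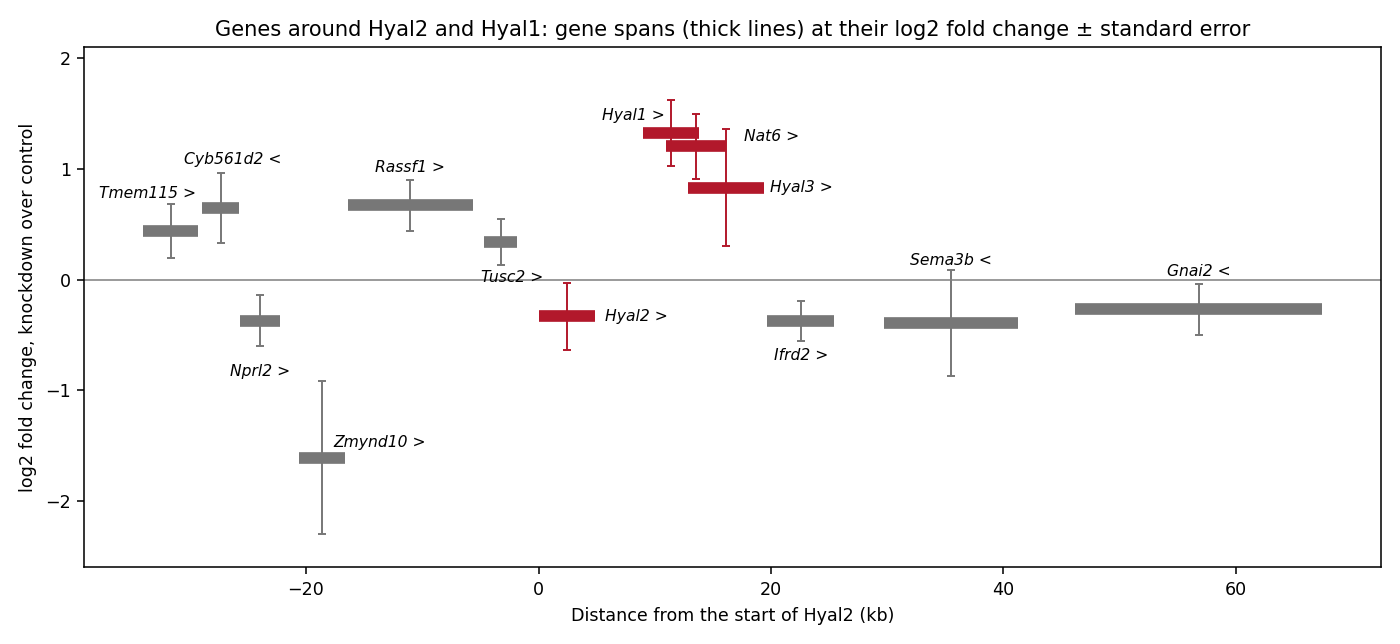
Protein-coding genes around Hyal2, drawn as thick lines from their start to their end (kb from the start of Hyal2) at the height of their log2 fold change, with its standard error as a bar. Cacna2d2 is not drawn. Arrowheads give the strand and red marks Hyal1, Hyal2, Hyal3 and the overlapping Nat6. Hyal1, Nat6 and Hyal3, whose spans overlap each other, lie above 0, while Hyal2 lies at -0.33.

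Cd44, the receptor gene, was barely detected. Its counts were 6 and 10 in control cells and 10 and 20 after knockdown. Scaled to library size, the controls gave 0.317 and 0.519 CPM and the knockdown libraries 0.523 and 1.22 CPM. Control replicate 2 and knockdown replicate 1 had the same count, and only knockdown replicate 2 was higher. The log2 fold change of 1.03 (SE 0.68) was 0.32 without knockdown replicate 2. The 95% Poisson intervals of knockdown replicate 2 (0.743 to 1.88 CPM) and control replicate 2 (0.249 to 0.954 CPM) overlapped, while that of control replicate 1 ended at 0.690 CPM. Overlap of such intervals is not a test, and a difference in Cd44 between control replicate 2 and the knockdown libraries was not tested. Cd44 lies on chromosome 2 from 102811141 to 102901665.

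The other genes of the pathway were taken from lists chosen by role with earlier results of these data known, and 49 genes of them are reported here. Of the 49, 34 passed the filter on low counts and 5 had 0 counts in every library. Among these 34, edgeR called 0 in either direction at the threshold over all genes, with 7 at an unadjusted p below 0.05 against 19.6% of all tested genes. These counts cover the reported genes and not the full lists. DESeq2 called 1, Acan, and limma-voom 0, where they called 1107 and 241 of all 16209 tested genes. The median log2 fold change of the 34 was -0.10, against 0.01 over all tested genes.

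Among the breakdown genes reported here, Hexa, which encodes a subunit of a lysosomal hexosaminidase, measured 59.3 and 64.4 CPM in control cells against 93.8 and 97.7 CPM after knockdown. Both knockdown libraries lay above both controls, and the gene was not called (log2 fold change 0.63, SE 0.17, edgeR adjusted p = 0.106). Gusb, which encodes the lysosomal glucuronidase, was at -0.09 (SE 0.22).

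Tmem2, now named Cemip2, encodes a surface protein related to CEMIP. It measured 147 and 106 CPM in control cells and 106 and 150 CPM after knockdown. The groups overlapped fully, with a log2 fold change of 0.02 (SE 0.24). Per length Tmem2 was at 22.1 and 15.9 CPM per kb in the controls, where Cemip was at 0.134 and 0.277, and at 16.0 and 22.5 in the knockdown libraries, where Cemip was at 1.63 and 1.42. It was above Hyal1, Hyal2, Hyal3 and Cemip per length in each library. The sperm and testis hyaluronidase genes Spam1, Hyal5 and Hyal6 and the gene Hyal4 had 0 counts in every library.

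Genes that supply the sugars were not called, with 0 of 7 in either direction in edgeR, DESeq2 or limma-voom. Their median log2 fold change was -0.11, and 1 had an unadjusted edgeR p below 0.05, against 19.6% of all tested genes. Gfpt2 and Gfpt1, which encode the entry enzymes of the hexosamine pathway, were at -0.17 (SE 0.28) and 0.30 (SE 0.18). Among 7 other receptor genes 5 were tested and 0 called by any of these tools, with 0 at an unadjusted edgeR p below 0.05. Hmmr, which encodes a hyaluronan-binding protein that also sits on the mitotic spindle, was at 191 and 266 CPM in control cells against 205 and 219 CPM after knockdown (log2 fold change -0.11, SE 0.20). Per length it made up 97.2% to 98.5% of the summed level of 6 hyaluronan receptor genes, and Cd44 made up 0.113% to 0.375%. The 6 were Cd44, Hmmr, Lyve1, Stab1, Stab2 and Layn. Tlr2 and Tlr4 were left out of this sum, and Tlr2 was at 5.04 to 6.68 CPM per kb. The Toll-like receptor gene Tlr2 was at 0.17 (SE 0.27), and the lymphatic receptor gene Lyve1 had 1 count in all.

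Of 15 genes for matrix proteins that hold or coat hyaluronan, 7 were tested, with 2 above and 3 below both controls in both knockdown libraries. Of all tested genes, 27.3% lay above and 24.6% below. In edgeR 0 of the 7 were called and 3 had an unadjusted p below 0.05, as 19.6% of all tested genes had. DESeq2 called 1 of the 7, Acan, and limma-voom 0. The proteoglycan genes Vcan and Acan had the highest mean CPM over the 4 libraries, not corrected for length. Vcan was at -0.18 (SE 0.25). Acan measured 9.72 and 12.9 CPM in control cells and 4.50 and 3.71 CPM after knockdown, a log2 fold change of -1.46 (SE 0.35, edgeR adjusted p = 0.0793). It was 1 of the 3 below both controls. The 2 above were Hapln3 at 1.325 (SE 0.489) and Tnfaip6 at 1.314 (SE 0.564). The 11 genes for partners of CD44 took in its cytoskeletal linkers, the proteases that shed it, its splicing factors and its ligand osteopontin. Of them 11 were tested and 0 called by edgeR, DESeq2 or limma-voom. An unadjusted edgeR p below 0.05 was found in 2, against 19.6% of all tested genes. Spp1, the osteopontin gene, was at 496 and 400 CPM in control cells against 584 and 810 CPM after knockdown (log2 fold change 0.64, SE 0.22, edgeR adjusted p = 0.17). Ezr, which encodes the linker ezrin, was at -0.42 (SE 0.19).

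**Figure D4:**
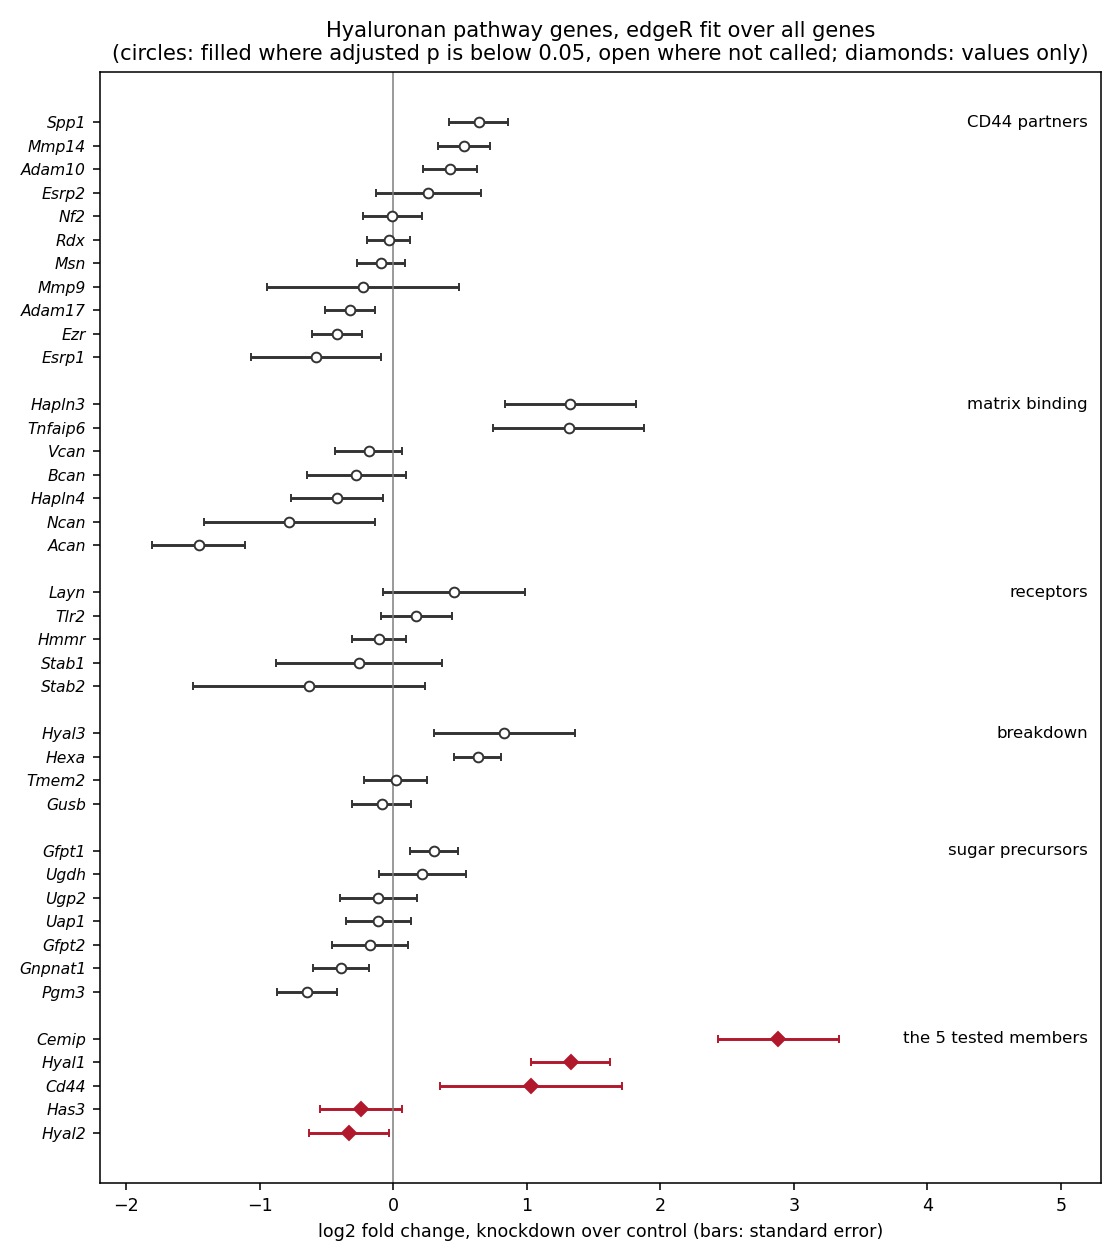
Log2 fold change (knockdown over control, bars are standard errors) of the 5 tested members (red diamonds) and of 34 tested genes of the 5 lists of other hyaluronan genes with tested members (circles, open where not called). Cemip lies farthest to the right at 2.88, all 34 circles are open, and Acan lies farthest to the left at -1.46.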

How the data were processed

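The table that the authors deposited holds raw gene counts, not normalized, of 2 control and 2 knockdown libraries. The submitters' processing notes name cutadapt, HISAT2, featureCounts and mm10. Nothing used here gives versions, annotation, strand setting or the treatment of shared or multiply mapped reads. Of 36068 rows, 92 spike-in rows held 0 counts and were left out. Another 27 rows whose symbols had become dates stayed in the fit and are not named.

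In R 4.3.3, filterByExpr of edgeR 4.0.16 kept 16209 genes. Libraries were scaled by TMM, and CPM in the text are scaled so. The comparison used the quasi-likelihood F-test of edgeR without covariates, adjusted by Benjamini-Hochberg across all tested genes. Standard errors were obtained by dividing the absolute log2 fold change by the root of F. Positions, lengths and overlaps came from GENCODE M21. The procedure was tested on simulated data. The text names the 6 members and, from each pathway list, called genes or, with none called, the 2 most abundant tested members. A result on the pathway lists is not reported here, and the list counts, median and figure leave its gene out, so they do not cover the full lists. The text also names the 5 genes nearest to each called member. Genes named beyond this were chosen after their values were seen. Members and lists were chosen with earlier results of these data known. Alternatives were other scalings, filters and tools, a replicate block, leaving out each library and other transcript lengths. At this depth counting error limits Has2, Cd44, Has1 and Hyal3. The number of libraries limits the rest and also Has2, whose knockdown libraries differed beyond counting error.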

Additional observations from a re-analysis of the deposited data

How the results depend on the processing

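The number of genes called, 232, was 1717 with no filter beyond a count above 0, 1107 with DESeq2 1.42.0 and 153 to 587 when 1 library was left out (587 and 349 when control replicate 1 or 2 was dropped, 386 and 153 when knockdown replicate 1 or 2 was dropped). The causes were not tested. Such fits take the spread of the lone remaining library from the intact group. The count of 0 called among the reported pathway genes became 3 without the filter (Acan, Itih5 and Spp1), 1 with DESeq2 (Acan) and 0 to 1 when 1 library was left out. It was 1 without control replicate 1, where Itih5 was called. Itih5 had 5 and 33 counts in control cells and 0 in each knockdown library, too few for the filter of the main fit. Without control replicate 1 it was tested, and its value there rested on control replicate 2 alone. With the replicate number as a block, 656 genes were called over all genes and 0 among the reported pathway genes. The numbers are not said to pair libraries, and the deviations of same-numbered libraries correlated at -0.052 across genes. The log2 fold change of Cemip ranged from 2.45 to 3.45 over the alternatives. That of Hyal2 ranged from -0.75 to 0.16 and that of Cd44 from 0.32 to 1.52 when 1 library was left out. Per length, the control level of Hyal2 was 21.8 CPM per kb by the median transcript length and 10.1 by the union of exons.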
